A study of Mus musculus with 12 samples.

Results

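The genes described here are 9 members of the complement system, measured in whole mouse lung and chosen by name for their roles in the cascade: the C1q chains C1qa, C1qb and C1qc, the central component C3, the alternative pathway genes Cfb and Cfp, the membrane regulator Cd55, and the anaphylatoxin receptors C3ar1 and C5ar1. The choice of genes was made with earlier results of these data known. A gene was found through the array's probe sets that carry its symbol alone, and where it had several, the one brightest on average over the 12 arrays stood for it. By this rule 8 of the 9 genes had a probe set, and all 8 passed the filter on low signal, among 11859 genes tested. C3 was not matched to a probe set by the platform annotation and is not analysed here. Values per array are the deposited signal in linear units. Log2 changes were fitted by limma on log2 of the signal plus 3.467, over probe sets above the array median on at least 3 arrays. A gene is called, or said to rise or fall, at a Benjamini-Hochberg adjusted p under 0.05.

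Total RNA was hybridised to 12 arrays, 3 in each of 4 groups. The wild-type groups were Balb/c mice sampled 8 h after either sham surgery or cecal ligation and puncture (CLP), an operation that lets gut bacteria leak into the abdomen and so models sepsis. The other groups had the same surgeries and time point and carry the label PPTA knockout; PPTA is an older name of Tac1, which encodes the precursor of the neuropeptide substance P. All mice were 8-10 weeks old. No strain is given for the knockout group, so strain and genotype cannot be told apart, and whether the 3 samples of a group are separate animals is not stated, so p-values cover only the spread between these samples, which may be technical. The labels do not describe how the Tac1 allele was disrupted.

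The Tac1 signal went against the genotype label. Probe set 1416783_at had means of 5.46 (SD 2.78, n = 3) in the wild-type sham group and 10.8 (SD 6.21) in the wild-type CLP group, against 450.4 (SD 75.8) and 413 (SD 67.1) in the knockout-labelled sham and CLP groups. The second Tac1 probe set, 1431883_at, was low on all arrays, from 1.26 to 16.0, and whether either lies in the deleted part is not known here. The mice are therefore called knockout-labelled throughout, and every genotype difference below compares libraries by their label. In the knockout-labelled sham group, replicate 3 differed from the other two arrays, with 646 probe sets at least 2-fold above both and 758 at least 2-fold below both; no wild-type array had more than 33 and 78. Every other knockout-labelled array also exceeded those numbers. In the CLP group these were replicates 3 (202 above, 471 below), 1 (92 above, 329 below) and 2 (34 above, 126 below). In the sham group they were replicates 1 (83 above, 105 below) and 2 (37 above, 79 below). Alveolar type 2 cell markers, which include the surfactant proteins, summed to between 30741 and 35927 on every array. Of these markers, 3 of 6 were called lower between genotypes after CLP, where 18.7% of all genes were. The beta-actin 3-prime signal over its 5-prime signal reflects RNA quality. It was 1.28 to 1.45 in knockout-labelled CLP and 1.47 to 1.63 on all other arrays. The same ratio for Gapdh was lower in knockout-labelled lung after both surgeries. It was 0.729 to 0.799 against 0.8 to 0.832 after sham and 0.678 to 0.843 against 0.857 to 0.913 after CLP. The part of RNA quality in the results was not tested.

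Complement is a cascade of plasma and cell-surface proteins that marks microbes and damaged cells. C1q opens the classical pathway when it binds antibody or other surface patterns; all routes lead to cleavage of C3, and the alternative pathway, built on factor B, amplifies that step on the surface. The cleavage fragments C3a and C5a act through their own receptors on leukocytes, while membrane proteins such as Cd55 take apart the convertases on host cells. The liver makes most plasma complement, but macrophages and dendritic cells make C1q, and neutrophils store properdin.

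The sequences in front of some of these genes are shown because C5ar1 and Cfp rose together after CLP in knockout-labelled lung and C3ar1 had its highest signals there, whereas C1qb and C1qc, neighbours on chromosome 4, did not pass the test in any comparison. Each line is the 250 bases upstream of the annotated start, read 5′ to 3′ on the gene's strand, from RefSeq on GRCm38.p6. All lie on the minus strand: C5ar1 at chr7:16259339-16259588, Cfp at chrX:20931556-20931805, C3ar1 at chr6:122856158-122856407, C1qb at chr4:136886201-136886450 and C1qc at chr4:136892915-136893164. Capitals mark matches to the motifs searched.
C5ar1: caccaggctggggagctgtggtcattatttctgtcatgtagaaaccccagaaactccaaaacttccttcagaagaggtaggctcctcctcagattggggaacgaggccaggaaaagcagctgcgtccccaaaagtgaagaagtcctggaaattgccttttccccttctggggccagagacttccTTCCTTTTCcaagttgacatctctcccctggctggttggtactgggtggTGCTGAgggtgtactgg
Cfp: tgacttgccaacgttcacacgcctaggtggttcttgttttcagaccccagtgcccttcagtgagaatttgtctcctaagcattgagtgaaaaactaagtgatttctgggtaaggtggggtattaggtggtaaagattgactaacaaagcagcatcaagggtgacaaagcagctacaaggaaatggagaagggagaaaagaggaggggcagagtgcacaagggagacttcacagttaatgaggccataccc
C3ar1: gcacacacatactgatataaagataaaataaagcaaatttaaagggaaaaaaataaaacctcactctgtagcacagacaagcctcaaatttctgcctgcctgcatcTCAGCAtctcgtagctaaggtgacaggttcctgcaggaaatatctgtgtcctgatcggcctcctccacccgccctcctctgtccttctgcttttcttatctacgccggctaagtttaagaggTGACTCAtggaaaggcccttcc
C1qb: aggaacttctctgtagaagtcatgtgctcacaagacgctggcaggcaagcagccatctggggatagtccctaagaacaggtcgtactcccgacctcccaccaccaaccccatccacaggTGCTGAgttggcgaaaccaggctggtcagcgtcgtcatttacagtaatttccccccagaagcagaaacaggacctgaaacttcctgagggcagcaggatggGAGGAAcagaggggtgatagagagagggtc
C1qc: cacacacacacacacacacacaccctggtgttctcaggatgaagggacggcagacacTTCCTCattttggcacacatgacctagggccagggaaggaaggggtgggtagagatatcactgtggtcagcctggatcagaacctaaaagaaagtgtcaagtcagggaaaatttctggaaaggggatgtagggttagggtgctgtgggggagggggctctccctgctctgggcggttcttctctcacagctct

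The motifs were searched on both strands in these windows and in 32851 windows of the same length: NF-kappaB (GGGANTTTC, in 0.941% of windows), C/EBP (TTGCNNAA, 9.56%), STAT (TTCNNNGAA, 7.02%), IRF (GAAANNGAA, 7.13%), AP-1 (TGANTCA, 6.75%), PU.1 (GAGGAA, 23.3%) and the core Maf motif (TGCTGA, 16.1%). PU.1 is a transcription factor of myeloid cells, and its motif was present 25 to 30 bases upstream in C1qb and 188 to 193 bases upstream in C1qc. The C5ar1 window held an IRF match 58 to 66 bases upstream and a Maf match 12 to 17 bases upstream. In C3ar1 an AP-1 match lay 16 to 22 bases upstream and a Maf match 139 to 144. The Cfp window held no match to these 7 motifs. No matches overlapped. Of the 9 genes, 7 had a window in the table; C1qa and Cfb did not. A match describes letters in a window and does not show a bound site.

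**Figure D1:**
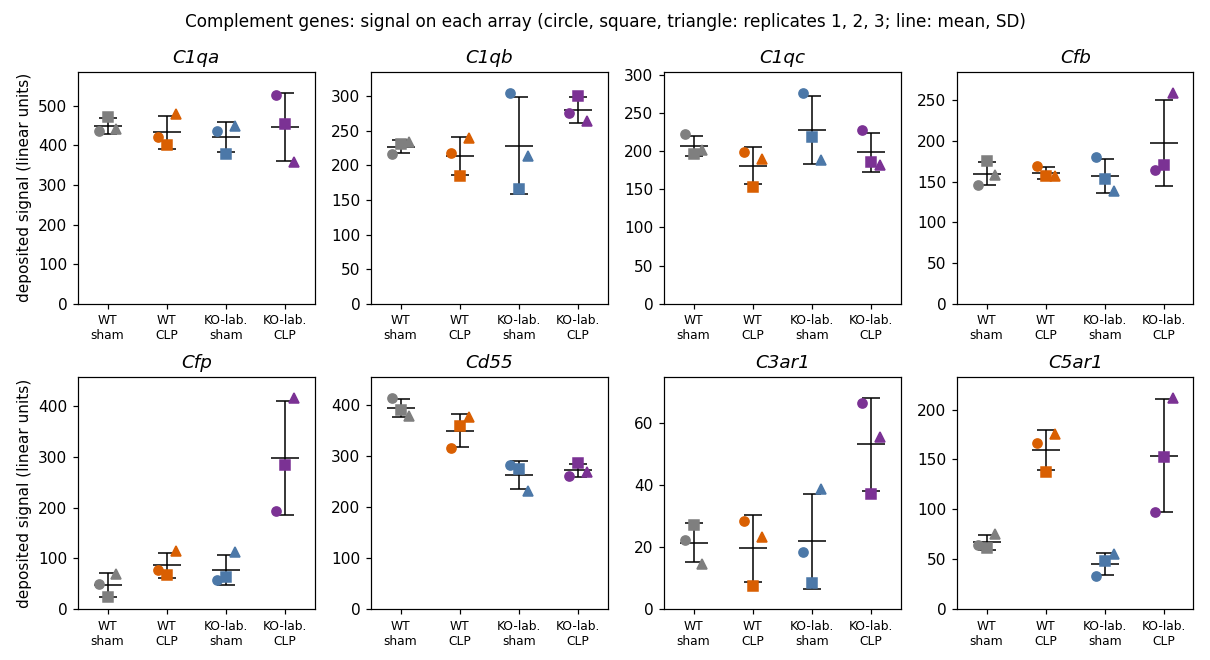
Signal of the 8 measured complement genes in linear units, one panel per gene, with 1 point per array, the group mean and error bars of 1 SD (n = 3) for the 4 groups of genotype and surgery. C5ar1 stood higher after CLP in both genotypes, Cfp was highest in knockout-labelled CLP, where its mean was 297, and in the C1q panels the groups overlap except for C1qb after CLP.

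The C1q chains, which form the recognition molecule of the classical pathway, did not pass the test in any comparison. C1qa (probe set 1417381_at) read 435, 471 and 440.0 in the wild-type sham group and 419.9, 399.7 and 478.5 in the wild-type CLP group. Its knockout-labelled values were 435, 378 and 449.9 after sham and 528, 455 and 358 after CLP, and all groups overlapped. The fitted log2 difference of CLP over sham was -0.06 (95% interval -0.354 to 0.243) in wild type and 0.07 (-0.228 to 0.369) in knockout-labelled lung, with limma adjusted p-values of 0.98 and 0.73. C1qb (1417063_at) ran from 185 to 239 over the wild-type arrays, from 166 to 305 in knockout-labelled sham and from 265 to 300.4 in knockout-labelled CLP, the last 3 values being above every wild-type CLP array. That genotype difference after CLP was 0.39 on the log2 scale (limma adjusted p = 0.13). C1qb's other probe sets, 1434366_x_at and 1437726_x_at, gave log2 differences of 0.06 and 0.28 there, with limma adjusted p-values of 0.75 and 0.11. C1qc (1449401_at) ran from 153 to 276 over all 12 arrays, with a log2 difference of CLP over sham of -0.20 in wild type (adjusted p = 0.86) and -0.18 in knockout-labelled lung (0.41). C1qb depended on 1 library: without replicate 1 of knockout-labelled sham, limma called its difference of CLP over sham in that genotype (0.56, adjusted p = 0.022) and its genotype difference after CLP (0.39, adjusted p = 0.049).

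Cfb, which encodes factor B, the serine protease of the alternative pathway convertase, did not pass the test either. It read 146, 175 and 158 in the wild-type sham group and 169.7, 157 and 157 in the wild-type CLP group on probe set 1417314_at. The knockout-labelled sham arrays read 180.2, 153 and 138 and the CLP arrays 164, 170.5 and 259, so that replicate 3 of knockout-labelled CLP was the high one. The fitted log2 difference of CLP over sham was 0.30 (95% interval -0.066 to 0.673, limma adjusted p = 0.20) in knockout-labelled lung, and 0.10 (adjusted p = 0.65) without that array. In wild type it was 0.01 (adjusted p = 0.99).

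Cfp encodes properdin, which stabilises the alternative pathway convertase, and its signal was highest in knockout-labelled CLP. On probe set 1452279_at it read 49.8, 22.8 and 69.8 in the wild-type sham group and 77.2, 67.5 and 113 in the wild-type CLP group. It read 57.6, 62.7 and 112 after sham and 193, 283 and 415 after CLP in knockout-labelled lung. All knockout-labelled CLP arrays were above every other array, while the other 3 groups overlapped in part. Cfp rose 3.7-fold over sham in knockout-labelled lung (log2 change 1.89, SE 0.382, limma adjusted p = 0.0035), and was 3.28-fold higher in knockout-labelled than in wild-type lung after CLP (1.71, SE 0.382, limma adjusted p = 0.0057). In wild type the difference of CLP over sham was 0.90 (SE 0.382, adjusted p = 0.51); the difference between the responses was 0.99 (95% interval -0.184 to 2.154, limma adjusted p = 0.30), and did not pass the test. Cfp's other probe set, 1447537_at, read otherwise. Its log2 difference was 0.16 (limma adjusted p = 0.58) for CLP over sham in knockout-labelled lung and 0.51 (0.077) between genotypes after CLP. In wild type it was -0.42 for CLP over sham (limma adjusted p = 0.62), opposite in sign to 1452279_at. Every wild-type CLP array was below the wild-type sham arrays on 1447537_at. Both calls on 1452279_at held in all 12 runs that left out 1 array; without replicate 3 of knockout-labelled sham, the rise was 2.17 on the log2 scale (limma adjusted p = 0.0015). When all Cfp probe sets were averaged, the values were smaller, 1.02 (limma adjusted p = 0.01) over sham and 1.11 (0.0066) between genotypes.

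Neutrophil marker signal was higher after CLP in both genotypes. The list of neutrophil markers (S100a8, S100a9, Csf3r and others; 12 of 14 measured, none at 0) summed to between 9998 and 16642 in the wild-type sham group, 37307 and 41861 in the wild-type CLP group, 11117 and 27611 in knockout-labelled sham (the high value being replicate 3), and 46273 and 53283 in knockout-labelled CLP. Of those 12 markers, 9 passed the test upward after CLP in wild type and 10 in knockout-labelled lung. The shares of all genes called higher were 1.1% and 11.4%. S100a8 and S100a9 carried much of the sums, with means of 14877 and 14485 in wild-type CLP and 13873 and 13632 in knockout-labelled CLP. Between genotypes after CLP, 3 of the 12 were called higher (Ngp 1.69, Camp 1.83 and Ltf 1.81) and 1 lower (Mmp9 -0.79). There 13% of all genes were called higher and 18.7% lower. Monocyte markers (6 of 8 measured, none at 0) summed to 3250–3450 after sham and 4118–4641 after CLP in wild type, and to 2936–4533 after sham and 5217–9807 after CLP in knockout-labelled lung. In whole tissue, more cells of a type and more RNA per cell cannot be told apart, and the part of these cells in the Cfp difference was not tested.

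Cd55 encodes decay-accelerating factor, a membrane protein that dissociates the C3 convertases on host cells, and it was lower in knockout-labelled lung. On probe set 1460242_at the wild-type arrays read 413, 390.2 and 378 after sham and 315, 358 and 377 after CLP. The knockout-labelled arrays read 283, 275 and 231 after sham and 261, 286 and 269 after CLP. Every knockout-labelled array was below every wild-type array. Cd55 was 1.5-fold lower after sham (log2 change -0.58, SE 0.113, limma adjusted p = 0.0068) and 1.28-fold lower after CLP (-0.35, SE 0.113, limma adjusted p = 0.032). Surgery made no called difference within either genotype: the log2 difference of CLP over sham was -0.17 (adjusted p = 0.79) in wild type and 0.05 (0.75) in knockout-labelled lung. Cd55's other probe sets made no call: 1418762_at gave -0.24 after sham (limma adjusted p = 0.40), and 1443906_at gave -0.04 (0.92) there and -0.38 after CLP (0.085). When all probe sets of a gene were averaged, the difference after sham was -0.29 (limma adjusted p = 0.17) and that after CLP -0.28 (0.088). The difference after CLP was not called without replicate 2 of wild-type CLP (adjusted p = 0.10), replicate 3 of wild-type CLP (0.12), or replicates 1 (0.067) or 3 (0.066) of knockout-labelled CLP, nor with arrays centred on their medians (0.069) or a fit of only these groups (0.053). Summed markers of structural cells were lower between genotypes after CLP as well, where 18.7% of all genes were called lower. Mesothelium markers summed to 1920–3095 in the knockout-labelled CLP group against 3708–4070 in the wild-type one (4 of 6 called lower). Fibroblast markers summed to 8157–10299 against 12418–12840 (3 of 8, all collagens) and endothelial markers to 9424–9743 against 12097–12226 (2 of 7, Kdr and Tek). Fibroblast markers without a call had log2 differences from -0.41 (Lum) to 0.17 (Tcf21), and endothelial ones from -0.37 (Cdh5) to 0.08 (Vwf). None of the structural markers was at 0. After sham, where 3.89% of all genes were called lower, the calls were 0 of 6, 1 of 8 and 0 of 7 lower. Fibroblast markers summed there to 10502–11916.5 in knockout-labelled lung against 12054–13425 in wild type, with no overlap. Endothelial sums did not overlap either, at 9099–10574.5 against 11410.5–11933. Mesothelium sums overlapped, at 3057–4429 against 3684.5–4091.5. The part of the structural markers in the Cd55 difference was not tested. A neighbour on chromosome 1, Cd55b, is a close copy of Cd55, and a probe set that carries both symbols was not used.

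C3ar1, the receptor for the C3 fragment C3a, was weakly expressed. On probe set 1419483_at it read 22.4, 27.2 and 14.6 in the wild-type sham group, 28.3, 7.3 and 23.1 in the wild-type CLP group, 18.5, 8.27 and 38.6 in knockout-labelled sham, and 66.6, 37.2 and 55.6 in knockout-labelled CLP. The knockout-labelled CLP arrays were above the wild-type CLP arrays, and replicate 3 of knockout-labelled sham sat among them. The fitted log2 difference between genotypes after CLP was 1.40 (SE 0.486, limma adjusted p = 0.045). Its size depended on how low signal was treated: it was 0.96 with a pseudocount of 50% of the median array median and 1.62 with a floor. Every wild-type array was below the lowest array median (31.1), and C3ar1 passed the filter through only 4 of the 12 arrays, the 3 of knockout-labelled CLP and replicate 3 of knockout-labelled sham, so it could pass only by being high there and the call is given as a description. Its other probe sets read 12.9, 2.29 and 1.78 (1419482_at) and 11.2, 5.09 and 14.3 (1442082_at) in the wild-type CLP group, also below the array medians, against 59.0, 45.3 and 64.7 and 55.7, 32.2 and 64.2 in the knockout-labelled CLP group. The call on 1419483_at was lost in 9 of 12 runs that left out 1 array: the log2 difference was 0.93 (limma adjusted p = 0.19) without replicate 2 of wild-type CLP and 1.23 and 1.36 (both 0.11) without replicates 1 or 3 of knockout-labelled CLP, and the adjusted p was 0.054 to 0.065 without any of the 3 wild-type sham arrays, replicate 3 of wild-type CLP, replicate 1 of knockout-labelled sham or replicate 2 of knockout-labelled CLP. It was also lost with no filter (0.072), with a floor in place of the pseudocount (0.055), with no intensity trend (0.051) and with array weights (0.052).

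For CLP over sham in knockout-labelled lung, C3ar1 differed by 1.32 on the log2 scale (SE 0.486, limma adjusted p = 0.059) and was not called. Without replicate 3 of knockout-labelled sham it was called (1.78, limma adjusted p = 0.012), and without replicate 2 of wild-type CLP also (1.32, adjusted p = 0.038). It was also called with quantile normalization (1.51, 0.035), median centring (1.54, 0.029), the higher pseudocount (0.90, 0.038), a block for replicate number (1.32, 0.043), array weights (1.39, 0.035) and the average of its probe sets (1.48, 0.04), which makes 6 of 11 other settings. In wild type the difference was -0.22 (adjusted p = 0.98). The difference between the C3ar1 responses was 1.54 (SE 0.687, limma adjusted p = 0.21). Alveolar macrophage markers (8 of 10 measured, none at 0) summed to between 3869.6 and 4107 on the wild-type sham arrays, 3940.0 and 4101 on the wild-type CLP arrays, 3617 and 10249 in knockout-labelled sham, the high value being replicate 3, and 9139 and 9935 in knockout-labelled CLP. In the genotype comparison after CLP, 4 of those 8 markers passed the test upward (Chil3, Marco, Krt79 and Plet1) and 1 (Car4) downward. There 13% of all genes were called higher and 18.7% lower. Chil3 carried most of the difference in the sum: it read 905 to 1017 in the wild-type CLP group and 5827 to 6276 in the knockout-labelled one, where the other 7 markers summed to 3035–3123 and 3311–3908. Dimmer markers weigh little in that sum. Marco had means of 5.33 in wild-type CLP and 133 in knockout-labelled CLP, and Krt79 of 87.0 and 447, while Car4 had 1672 and 1278. General macrophage markers (11 of 12 measured, none at 0) summed to 5797–6164 in wild-type CLP and 8820–9424 in knockout-labelled CLP. After sham they summed to 6009–6378 in wild type and 5881–9306 in knockout-labelled lung, the high value again being replicate 3. Between genotypes after CLP, 3 of 10 tested were called higher (Cd68, Mrc1 and Ctss) and 0 lower. The part of either list of macrophage markers in the C3ar1 difference was not tested.

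C5ar1, the main receptor for C5a and a potent guide of neutrophils, rose after CLP in both genotypes. On probe set 1439902_at it read 64.3, 61.3 and 75.7 in the wild-type sham group and 167, 137 and 175 in the wild-type CLP group. It read 32.7, 47.9 and 55.0 in knockout-labelled sham and 97.5, 153 and 211 in knockout-labelled CLP. The CLP arrays were all above the sham arrays of the same genotype, with no overlap. C5ar1 rose 2.31-fold in wild type (log2 change 1.21, SE 0.253, limma adjusted p = 0.045) and 3.15-fold in knockout-labelled lung (1.65, SE 0.253, limma adjusted p = 0.00079). Its other probe set, 1422190_at, gave changes of 1.57 (limma adjusted p = 0.039) and 1.88 (0.0014). The difference between the responses was 0.45 (95% interval -0.328 to 1.223, limma adjusted p = 0.49), and levels after CLP differed by -0.11 (-0.661 to 0.436, adjusted p = 0.77).

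The wild-type call for C5ar1 was lost in 8 of 12 runs that left out 1 array, with limma adjusted p of 0.20, 0.19 and 0.12 without replicates 1, 2 and 3 of wild-type sham, and 0.20, 0.10 and 0.22 without those of wild-type CLP. It was also lost without replicate 2 of knockout-labelled sham (0.063) or CLP (0.065), and with no filter or no intensity trend (both 0.071), although the log2 change stayed between 1.14 and 1.31. The knockout-labelled call held in all 12 such runs, with a log2 change of 1.80 (limma adjusted p = 0.00046) without replicate 3 of knockout-labelled sham. After sham, C5ar1 was lower on all 3 knockout-labelled arrays than on any wild-type array, a log2 difference of -0.56 that was not called (limma adjusted p = 0.21). The neutrophil marker sums given beside Cfp were, like C5ar1, higher after CLP in both genotypes. After sham the knockout-labelled sums were 11117 to 27611 against 9998 to 16642 in wild type, and so overlapped. After CLP they were 46273 to 53283 against 37307 to 41861. Of the 12 neutrophil markers, 2 were called lower in knockout-labelled lung after sham and 0 higher, where 3.89% of all genes were called lower. These were Ngp (-0.79, limma adjusted p = 0.023) and Camp (-1.56, limma adjusted p = 0.019). The part of the neutrophil markers in the rise of C5ar1 was not tested.

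**Figure D2:**
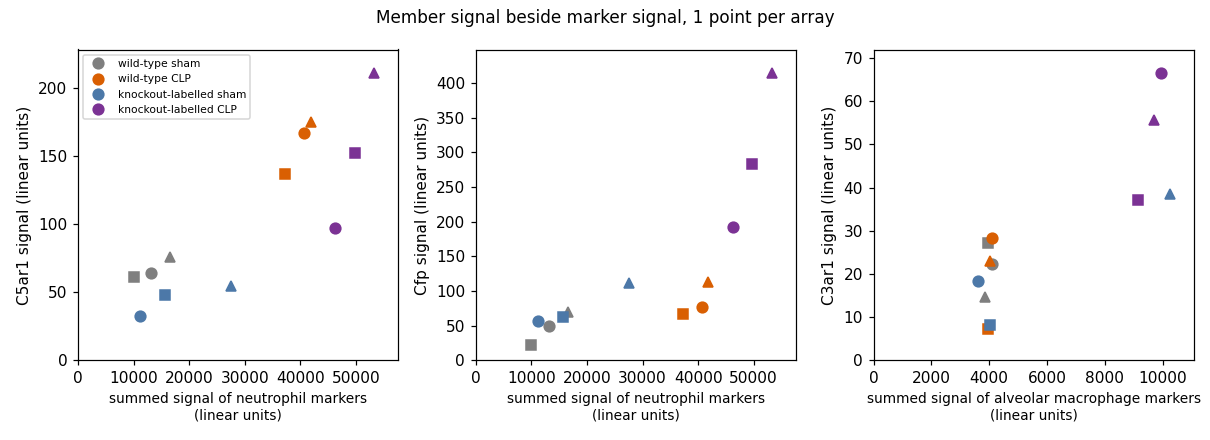
Signal of C5ar1 and Cfp against the summed neutrophil markers, and of C3ar1 against the summed alveolar macrophage markers, in linear units, with 1 point per array, the colour giving the group and the shape the replicate. The neutrophil sums lie between 9998 and 27611 on the sham arrays and between 37307 and 53283 on the CLP arrays, and for alveolar macrophage markers replicate 3 of knockout-labelled sham (10249) lies with the knockout-labelled CLP arrays, where most of the sum is Chil3.

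Counted over the 8 measured genes in wild type, 1 of 8 rose after CLP (C5ar1), where 1.1% of all 11859 genes were called higher and 1.16% in either direction. In knockout-labelled lung, 2 of 8 rose (Cfp and C5ar1) and none fell, where 11.4% of all genes were called higher, 19.9% lower and 31.3% in either direction. The difference between the responses was called by limma for none of the 8, where 4.98% of all genes were called, and 1 of the 8 (C3ar1) had an unadjusted p under 0.05; limma was the only tool run. After sham, 1 of 8 was lower in knockout-labelled lung (Cd55), where 3.89% of all genes were called lower and 8.76% in either direction. After CLP, 2 were higher (Cfp and C3ar1, the latter through the filter described above) and 1 lower (Cd55), where 13% of all genes were called higher, 18.7% lower and 31.8% in either direction. These splits depended on scaling: of all genes called, 36.5% were higher for knockout-labelled CLP against sham, and 71.9% with arrays centred on their medians, which moved the median of all genes there from -0.11 to 0.11. The share higher went from 37.2% to 62.1% for the difference between the responses and from 55.6% to 39.5% for the genotype difference after sham. The calls of Cfp, C5ar1 and C3ar1 kept their direction and side under that centring, and Cd55 kept its call after sham. With 8 genes, the shares of members are near the background for knockout-labelled CLP against sham and for the genotype difference after CLP. In wild type and after sham, each share rests on 1 gene (C5ar1 and Cd55). None of these shares is a result about the complement genes as a group. The median log2 change of the 8 genes was -0.07 in wild type and 0.32 in knockout-labelled lung, beside -0.03 and -0.11 over all genes. It was 0.36 for the difference between the responses and 0.20 for the genotype difference after CLP, beside -0.08 and -0.06. Wild type and knockout-labelled lung share no control arrays, but the genotype comparisons reuse the arrays of the CLP comparisons.

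**Figure D3:**
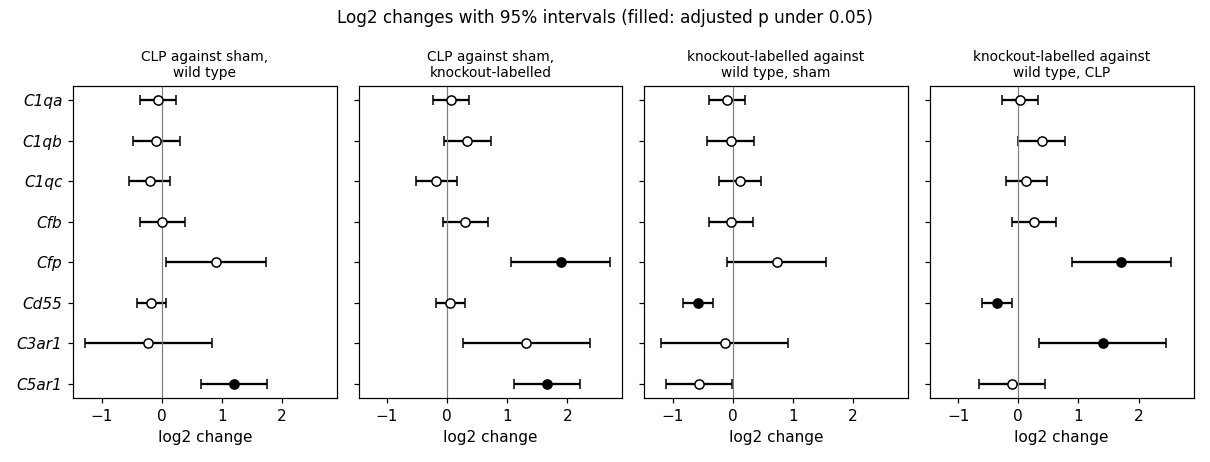
Log2 changes of the 8 measured complement genes with 95% intervals from limma, for CLP against sham in wild type and in knockout-labelled lung and for knockout-labelled against wild type after sham and after CLP, filled where the adjusted p was under 0.05. C5ar1 is filled in both CLP comparisons (1.21 and 1.65), Cfp in 2 panels (1.89 and 1.71), Cd55 in both genotype panels and C3ar1 only between genotypes after CLP (1.40).

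The other genes of the pathway were counted from a list of 47, of which 37 had a probe set and 22 passed the filter. None of the 22 passed the test in wild type, where 1.16% of all genes were called in either direction. Limma, the only tool run, gave 2 of them an unadjusted p under 0.05. In knockout-labelled lung 3 of 22 rose after CLP and none fell, where 11.4% of all genes were called higher and 19.9% lower; the share that rose was near the background. The risers were the integrin chains that form complement receptors, Itgam (CD11b, alpha chain of receptor 3; log2 change 1.84, limma adjusted p = 0.0012) and Itgb2 (CD18, their shared beta chain; 1.28, 0.0015), and Mbl1, a mannose-binding lectin that starts the lectin pathway (0.83, 0.012). In wild type Itgam and Itgb2 differed by 1.01 (adjusted p = 0.22) and 0.76 (0.20). Without replicate 3 of knockout-labelled sham, 5 of the 22 rose and 3 fell (C1s1, C2 and Cd59a); without replicate 1 of knockout-labelled CLP, 3 rose and 3 fell, and without its replicate 3, 4 rose and 1 fell. With arrays centred on their medians, 6 rose and none fell; with array weights, 5 rose and 5 fell (C1s1, C2, Serping1, Fcna and Cd59a); with quantile normalization, 3 rose and 1 fell (Serping1). Mbl1 was not called with only the 2 groups in the fit (adjusted p = 0.08). The difference between the responses passed for none of the 22 (2 had an unadjusted p under 0.05), where 4.98% of all genes were called. Mbl1 was closest (1.14, SE 0.301, limma adjusted p = 0.054). Mbl1 was called for it with quantile normalization, median centring, the filter of 9 arrays, no intensity trend or averaged probe sets; 5 genes were called with array weights, and 4 (Mbl1, Cr1l, Itgax and Itgb2) without replicate 3 of knockout-labelled sham. In wild type Itgb2 was called without that array, and Itgam and Itgb2 with array weights or with only the 2 groups in the fit.

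Itgb2, not called in wild type, read 613, 550.3 and 590.3 in the wild-type sham group and 1055, 919.9 and 1009 in the wild-type CLP group. The knockout-labelled arrays read 549.8, 554 and 1171 after sham and 1594, 1816 and 1797 after CLP, so that all CLP arrays were above the sham arrays of their genotype and replicate 3 of knockout-labelled sham was the highest sham array. Mbl1 read 41.9, 51.0 and 43.1 in the wild-type sham group and 36.0, 38.5 and 33.3 in the wild-type CLP group. The knockout-labelled Mbl1 values were 19.3, 30.9 and 24.3 after sham and 55.7, 45.4 and 38.8 after CLP, so the sham arrays were the lowest of all groups. Mbl1 was lower after sham in knockout-labelled lung (log2 change -0.80, limma adjusted p = 0.036). That call was lost in 8 of 12 runs that left out 1 array, those without any 1 of the 6 wild-type arrays or replicate 1 or 3 of knockout-labelled sham, with adjusted p from 0.053 to 0.14. It was also lost with no filter and with only the 2 groups in the fit (limma adjusted p up to 0.099).

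Between genotypes, 1 of 22 was higher and 1 lower after sham, where 4.87% of all genes were called higher and 3.89% lower. After CLP 3 were higher and 3 lower, where 13% of all genes were called higher and 18.7% lower. The shares were near the background after both surgeries. Cd59a, which blocks the membrane attack complex, was higher after sham (0.72, limma adjusted p = 0.032), but this call was lost without any of the 3 wild-type sham arrays or replicates 1 or 2 of wild-type CLP or of knockout-labelled sham (adjusted p up to 0.11), and when all probe sets of the gene were averaged (0.29, adjusted p = 0.30). With no intensity trend it was lost as well. Itgax (CD11c, alpha chain of receptor 4) was higher after CLP (0.91, limma adjusted p = 0.012) with the arrays at 498, 425 and 352 against 231, 215 and 222 in wild type. Itgb2 was also higher after CLP (0.80, adjusted p = 0.017), though not called without replicate 2 of wild-type CLP (0.064) or of knockout-labelled CLP (0.052). Cd59a was higher too (0.55, adjusted p = 0.042), in only 4 of 12 runs that left out 1 array: the call was lost without any wild-type array or replicates 1 or 2 of knockout-labelled CLP (adjusted p up to 0.14), and averaging its probe sets gave 0.11 (0.64). This Cd59a call was also lost with no filter, with no intensity trend and with only the 2 groups in the fit. Hc, which encodes C5, read 2287, 1798 and 2074 in knockout-labelled CLP against 2634, 2697 and 2607 in wild-type CLP, with no overlap (log2 change -0.37, limma adjusted p = 0.012). Vtn, the inhibitor vitronectin, and Colec12, a collectin, were lower as well (-0.51, adjusted p = 0.022, and -0.45, adjusted p = 0.034). Vtn was not called without replicate 2 (0.058) or 3 (0.092) of wild-type CLP or replicate 2 of knockout-labelled CLP (0.078). Colec12 was not called without any of the wild-type CLP arrays or replicates 2 or 3 of knockout-labelled CLP (adjusted p up to 0.12). With arrays centred on their medians Colec12 was not called either (limma adjusted p = 0.057). After sham, Hc (-0.27, limma adjusted p = 0.10) and Vtn (-0.38, 0.14) were not called. Their knockout-labelled sham arrays were nonetheless all below the wild-type sham arrays. The part of the structural cell markers, given beside Cd55, in the Hc, Vtn and Colec12 differences was not tested. Classical pathway genes on the list (5 tested of 10) gave no call in any comparison.

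**Figure D4:**
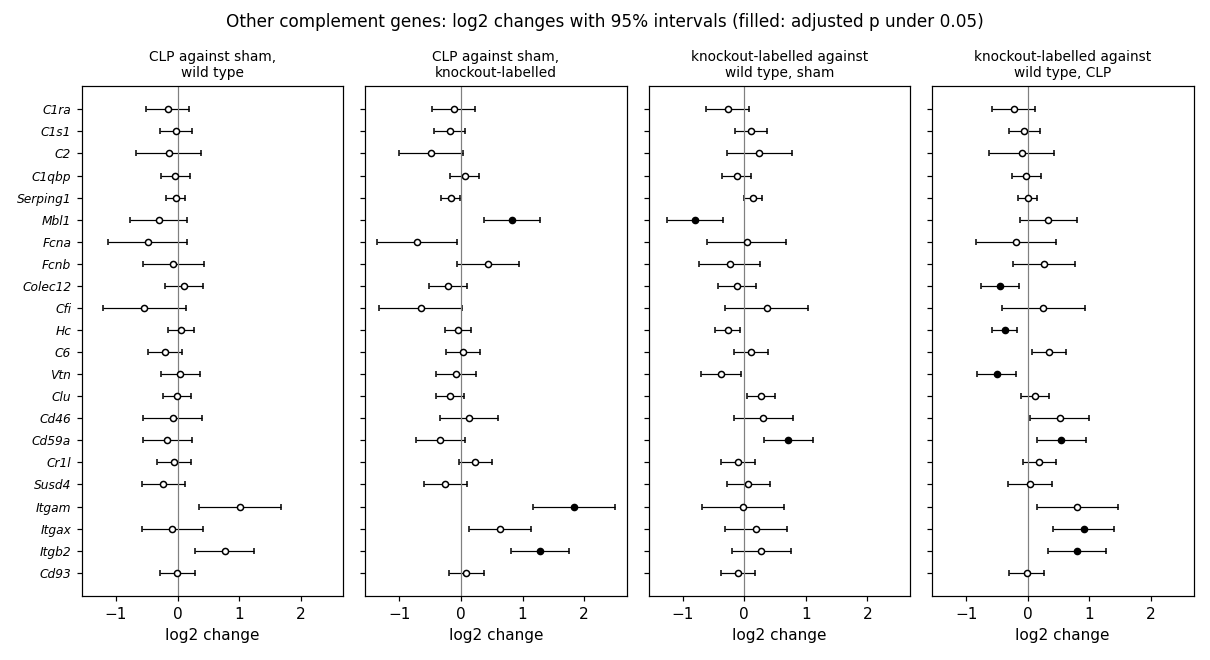
Log2 changes of the other complement genes that passed the filter, by pathway, for the comparisons of surgery and of genotype, filled where limma's adjusted p was under 0.05. The filled points are Itgam, Itgb2 and Mbl1 for CLP in knockout-labelled lung, Cd59a and Mbl1 after sham, and Itgax, Itgb2, Cd59a, Vtn, Colec12 and Hc between genotypes after CLP.

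The genes whose patterns were most like those of the called genes were found by the root mean square difference of log2 signal over 12 arrays, each gene centred on its own mean, among 11858 genes. For Cfp they were Pik3r5 (0.306), Wfdc18 (0.351) and Cd53 (0.352), where Cfp itself varied by 1.06 about its mean. For C5ar1 they were Satb1 (0.272), Sbno2 (0.284) and Ifitm5 (0.284), with 0.796 for C5ar1 itself. On the genome, C1qb, C1qc and C1qa lie in succession on chromosome 4, Cfb lies beside C2 on chromosome 17, C5ar1 beside C5ar2 on chromosome 7, and Cfp beside Timp1 on chromosome X.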

How the data were processed

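Whole-lung RNA of 12 samples, 3 in each of 4 groups taken from the labels, was measured on 1-colour Affymetrix arrays. Each deposited value is the linear intensity of a probe set, made by the authors with GCOS, MAS5 and the Affymetrix Expression Console, per the submitters' processing notes; versions, roles and a genome build are not given in the sources used here. Every array had a mean of 150.001 once the lowest and highest 2% of values were trimmed; the intensities had thus been scaled to one target. No detection calls were used, and the number of arrays limits the precision.

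Log2(signal + 3.467) was analysed; the pseudocount is 10% of the median array median, and it understates the changes of weak genes. Probe sets above the array median on at least 3 arrays (24574 of 45037 non-control) were fitted with limma 3.58.1 in R 4.3.3, as 4 group means and a trend of variance on signal. Benjamini-Hochberg adjustment ran over all probe sets of a comparison, and a gene was called at an adjusted p under 0.05. Fold changes are on the log2(signal + pseudocount) scale. The fit was tested on simulated data.

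Members and lists were chosen with earlier results of these data known. All members are named; other complement genes are named where called, at most 3 rises and 3 falls per comparison by size, as are the 3 genes most alike in pattern to each member called for CLP against sham. Alternatives were quantile normalisation, median centring, another pseudocount, a floor, other filters, no trend, robust moderation, weighted arrays, a block for replicate number, a fit of only the 2 groups compared, an average over all probe sets of a gene, and leaving out each array; for the other complement genes they were added after seeing the data. Motifs were searched in RefSeq promoter windows, and chromosomes and neighbours come from RefSeq (GRCm38.p6).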

Additional observations from a re-analysis of the deposited data

How the results depend on the processing

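No called result changed sign under any alternative run. Among the single alternatives, the count of the 8 complement genes called fell from 1 to 0 in wild type with no filter and with no intensity trend (C5ar1, limma adjusted p = 0.071 in both), and rose from 2 to 5 in knockout-labelled CLP against sham when arrays were centred on their medians, where C1qb (0.56, adjusted p = 0.036), Cfb (0.53, 0.034) and C3ar1 (1.54, 0.029) joined. After sham, the genotype count rose from 1 to 2 with array weights (C5ar1, -0.69, limma adjusted p = 0.021) and fell to 0 when all probe sets of a gene were averaged. Leaving out 1 array gave counts of 0 to 1 in wild type, 2 to 3 in knockout-labelled CLP against sham, 0 for the difference of the responses, 1 for the genotype difference after sham and 1 to 3 after CLP. The labels do not say whether the replicate numbers pair the samples. Same-numbered deviations correlated between -0.104 and 0.119, which cannot settle this with 3 arrays per group. With the replicate number as a block, C3ar1 in knockout-labelled CLP against sham was called (1.32, limma adjusted p = 0.043). No other call among the 8 genes changed with that block. Over all probe sets tested, calls ranged from 51 (without replicate 3 of wild-type CLP) to 1308 (array weights) in wild type, where the value was 233. They ranged from 2669 to 10287 around 7172 in knockout-labelled CLP against sham, from 107 to 5834 around 995 for the difference of the responses, from 890 to 4071 around 2050 for the genotype difference after sham and from 3252 to 10403 around 7246 after CLP. The C3ar1 differences rest on wild-type signals below the array medians, and the files used hold no detection calls that would set a background.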
